A study of Bos grunniens with 24 samples.

Results

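SLC15A1 encodes PEPT1, the peptide transporter of the intestinal brush border. It was followed here as a single gene, the row that carries its symbol among 639 genes listed for the jejunum of yak calves (Bos grunniens), with a read count and an FPKM value (fragments scaled by gene length and by the library's mapped fragments) in each of 24 libraries. The 3 groups of 8 libraries were control calves (CON), calves after a challenge by enterotoxigenic Escherichia coli (ETEC), whose toxins cause secretory diarrhoea, and calves that received the lactic acid bacterium P. pentosaceus NQ0729 ahead of an ETEC challenge (PET). The challenge is thus shared by ETEC and PET. The labels give no age, sex, dose, batch or position along the jejunum, and they do not tie the replicate biosamples to named animals. P-values therefore measure only the spread among the samples. All tissue was whole jejunum, in which fewer cells of a type and less RNA per cell cannot be told apart.

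PEPT1 sits in the apical membrane of enterocytes, the absorptive cells of the villus, and carries small peptides into the cell together with protons. The peptides are released from dietary protein by peptidases of the gut lumen and brush border, the proton gradient is maintained by ion exchangers of the same membrane, and the amino acids set free inside the cell leave through transporters of the basolateral membrane. Free amino acids enter by separate apical transporters, so peptide and amino acid uptake run side by side.

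The table gives SLC15A1 as ENSBGRG00000022615, on the minus strand of chromosome 15 from 7998287 to 8053726, a span of 55440 bp, in a genome build not given in the sources used here, and annotates it with the POT family domain of proton-dependent peptide transporters. In the RefSeq annotation of the assembly Bosgru_T2T1.0, the protein-coding neighbours are STK24 and DOCK9, neither of which is in the table. The nearest listed gene is HS6ST3, 1793426 bp away. Since every listed gene had been called by the authors in 1 comparison or more, other genes of the region and other members of the SLC15 family were not analysed here.

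SLC15A1 ranked 43 of 639 by its mean FPKM over all libraries. By the median FPKM of a group it ranked 47 in CON, 44 in ETEC and 45 in PET. Among the 24 listed genes of the solute carrier families it ranked 4 in CON, below SLC6A19, SLC37A2 and SLC46A1, 4 in ETEC, below SLC37A2, SLC13A2 and SLC46A1, and 3 in PET, below SLC26A3 and SLC6A19. Its place among the listed transporters was therefore similar in the 3 groups by median, whereas the group means were not.

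In CON, SLC15A1 stood at 36.4, 21.5, 34.8, 21.4, 21.9, 30.4, 18.1 and 25.8 FPKM in libraries 1 to 8, with a mean of 26.3 ± 6.83 (SD, n = 8) and a median of 23.8. In ETEC it stood at 21.9, 18.9, 23.3, 22.5, 18.9, 21.1, 26.0 and 22.0 FPKM, with a mean of 21.8 ± 2.33 (SD, n = 8) and a median of 21.9. The ETEC libraries lay close together and within the range of CON, where 3 libraries were above all ETEC libraries and 1 was below them. In PET it stood at 152, 37.8, 19.1, 187, 21.8, 19.7, 47.9 and 16.8 FPKM, with a mean of 62.8 ± 67.5 (SD, n = 8) and a median of 29.8.

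PET held the highest and the lowest library of all 24. PET-4 and PET-1 were far above the rest, since PET-1 was 3.17 times the next library, PET-7, while every other library was at most 1.27 times the one ranked after it. PET-7 and PET-2 also exceeded every CON and ETEC library, PET-5, PET-6 and PET-3 lay among them, and PET-8 was below them all. The coefficient of variation was 26.0% in CON, 10.7% in ETEC and 107% in PET. The other 6 PET libraries, without PET-1 and PET-4, had a mean of 27.2 ± 12.7 FPKM (SD, n = 6).

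**Figure D1:**
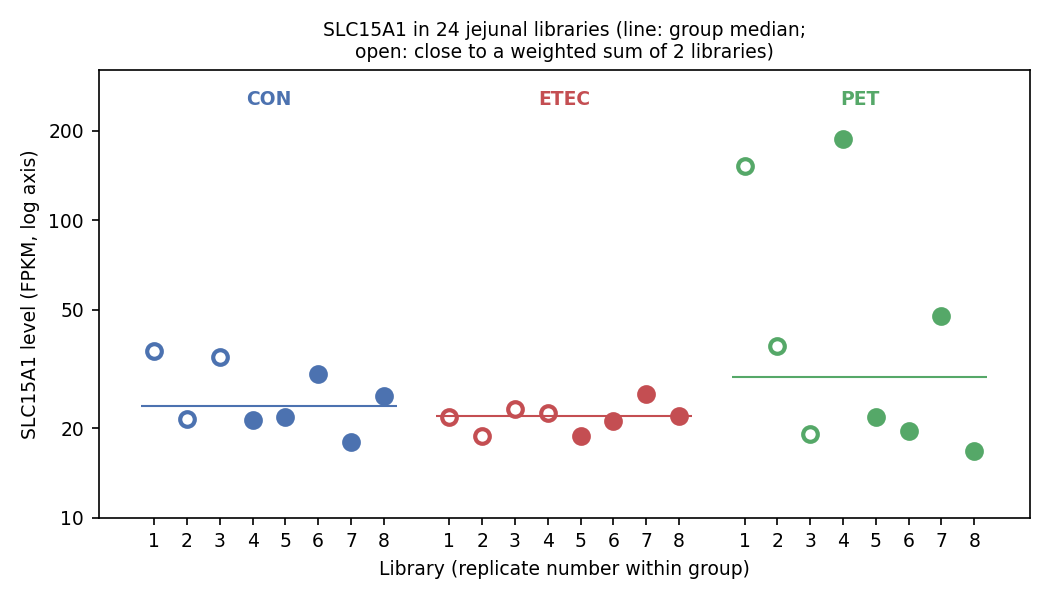
SLC15A1 level in FPKM on a log axis for each of the 24 libraries, by replicate number within its group, with the group median as a line; open symbols mark libraries close to a weighted sum of 2 libraries of their group. PET-1 and PET-4 stand at 152 and 187 FPKM, and the other 22 libraries lie between 16.8 and 47.9.

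Counting error was small beside these differences. The lowest count, 1326 fragments in CON-7, has an exact Poisson 95% interval of 1256 to 1399, and the highest was 24975 in PET-4; the interval covers counting error only. Counts over all listed genes ranged from 299776 to 1209769 per library, and relative depth, taken from the ratio of count to FPKM, from 0.718 to 1.50.

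The libraries differed in ways their labels do not name. Without SLC15A1 and the Y-linked genes, 10 libraries (CON-1 to CON-3, ETEC-1 to ETEC-4 and PET-1 to PET-3) lay close to a weighted sum of 2 libraries of their own group, with a residual 0.255 to 0.703 of that left by the best single library, against 0.837 to 1 in the other 14. The count columns of the table come in 2 runs, and 10 of the 11 libraries of the first run but 0 of the 13 of the second were close to a sum. SLC15A1, which took no part in the fit, was 0.884 to 1.30 times the level the sum gave in these 10 libraries. In the other 14 libraries it was 0.217 (PET-5) to 1.42 times (ETEC-7) the level given by their best sum of 2. Some of these, such as CON-6 at 1.01, lay in the same range, so this range alone does not mark out the 10. For PET-1 the sum was made up to 89.3% of PET-4, with PET-5 as the rest, and gave 146 FPKM of SLC15A1 against 152 observed. Tests over 8 libraries a group treat PET-1 and PET-4 as independent, so the calls of SLC15A1 and the counts of gene lists are also given without both. In addition, 7 Y-linked genes had 0 counts in all 8 CON libraries and at most 1 in ETEC-8 and PET-8, against 3383 to 11382 in the other 14, so the challenge and the Y-linked counts cannot be told apart in comparisons with CON.

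Did the challenge alone change the peptide transporter? SLC15A1 did not pass between ETEC and CON. Its log2 fold change was -0.27 ± 0.43 (SE) with an adjusted p of 0.570 in edgeR's quasi-likelihood test, adjusted over the 577 genes tested. In that comparison 70.9% of the tested genes were called at an adjusted p under 0.05, 171 higher in ETEC (29.6%) and 238 lower (41.2%), so SLC15A1 was among the minority of listed genes without a call. The difference in mean log2(FPKM + 0.1) was -0.23 (two-sided exact permutation test, p = 0.121, adjusted p = 0.182 over the 3 comparisons), and ETEC-7 was the only ETEC library above the CON median. The sign depended on the scaling, with log2 fold changes of 0.34 with TMM factors and 0.15 with DESeq2 size factors, which also turned the split of calls to 208 higher and 89 lower and to 201 and 157. The authors' deposited table gives -0.22 with an adjusted p of 0.254 and no call.

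PET and ETEC differ by the pretreatment, since both were challenged. SLC15A1 rose from ETEC to PET, with a log2 fold change of 1.52 ± 0.44 (SE) and an adjusted p of 0.00859 in edgeR. Of the tested genes 47% were called in this comparison, and 35.9% were called higher in PET (11.1% lower), so a rise was common among the listed genes. In the authors' deposited table SLC15A1 is called higher, at 1.55 with an adjusted p of 0.0469. It is listed through this call alone, so the edgeR test of the same counts is not independent evidence of a rise. The adjusted p of edgeR also covers listed genes only, not all genes of the genome. Of the 8 PET libraries, 4 lay above every ETEC library, 1 lay below them all and 3 fell within their range. The difference in mean log2(FPKM + 0.1) was 0.89 and did not pass (two-sided exact permutation test, p = 0.0845, adjusted p = 0.182), although 8 libraries against 8 could reach a p of 0.000155.

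The rise over ETEC rested on PET-1 and PET-4. Without both, a choice made after seeing the data, the log2 fold change was 0.32 with an adjusted p of 0.378 in edgeR, while leaving out either alone kept the call. The call was also lost in edgeR with TMM factors (log2 fold change 0.63, adjusted p = 0.175), with DESeq2 size factors (0.94, adjusted p = 0.0611) and over the 14 libraries that resembled no sum (1.41, adjusted p = 0.186), and in limma voom (0.90, adjusted p = 0.0926). Over these 14 libraries and in the TMM fit the background moved as well, to 0 and 162 called genes, 76 of the latter higher and 86 lower in PET, against 207 and 64; with DESeq2 size factors they were 117 and 69. Among the 7 libraries of each challenged group with Y-linked counts, the difference in mean log2(FPKM + 0.1) was 1.08 (two-sided exact permutation test, p = 0.0565). This set leaves out PET-8, the lowest library of all, and without PET-8 alone the difference was already 1.07.

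PET was also higher than CON, with a log2 fold change of 1.26 ± 0.44 (SE) and an adjusted p of 0.0244 in edgeR, where 41.4% of tested genes were called and 26.2% were called higher in PET (15.3% lower). This call was lost when PET-1 alone was left out (log2 fold change 0.93, adjusted p = 0.0815 in edgeR) and when PET-4 alone was left out (0.78, adjusted p = 0.115). Without both, the log2 fold change was 0.05 with an adjusted p of 0.907 in edgeR. It was also lost in limma voom (0.67, adjusted p = 0.255) and, in edgeR, with only the groups compared (1.26, adjusted p = 0.0859) and over the 14 libraries (1.32, adjusted p = 0.198). The authors' deposited table gives 1.33 with an adjusted p of 0.109 and no call. The difference in mean log2(FPKM + 0.1) was 0.66 (two-sided exact permutation test, p = 0.251), again with 4 PET libraries above every CON library and 1 below them all. PET vs ETEC and PET vs CON share the PET libraries, so the same high libraries enter both.

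**Figure D2:**
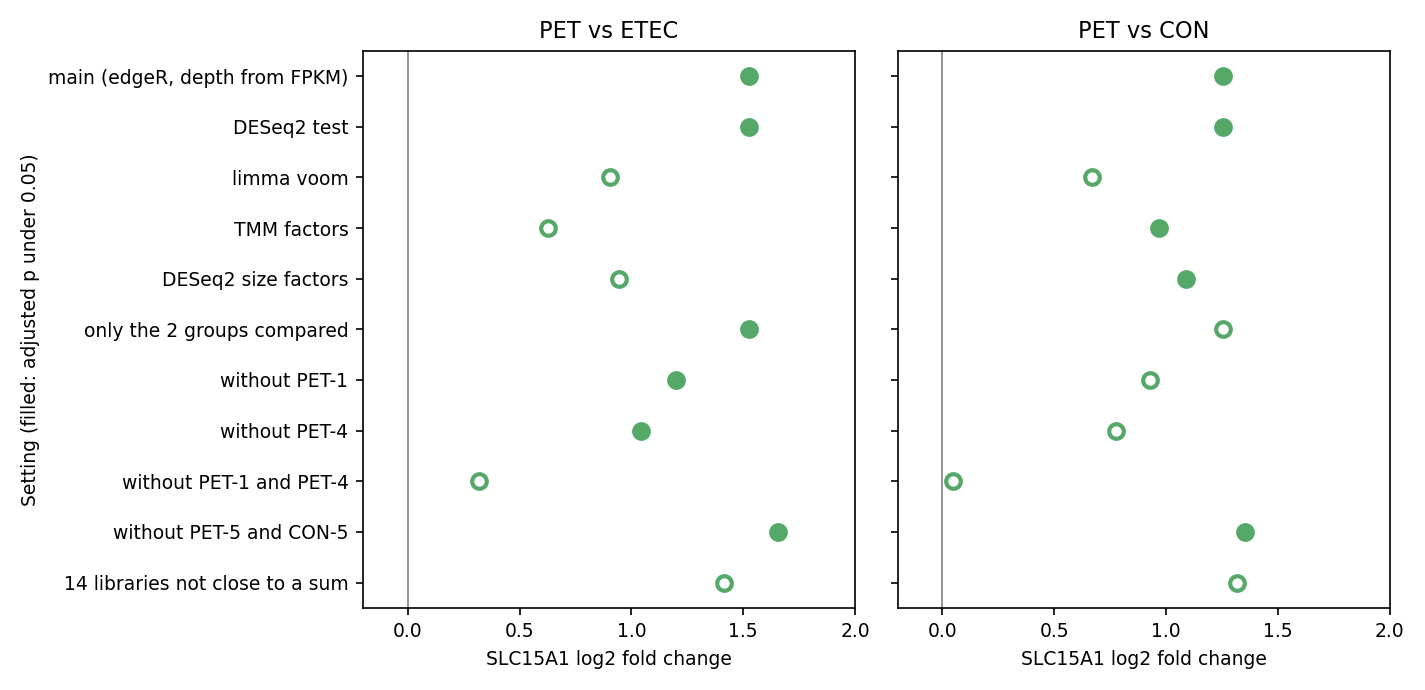
SLC15A1 log2 fold change for PET vs ETEC and PET vs CON under 11 settings of the test, scaling or libraries; filled symbols have an adjusted p under 0.05. All values lie above 0, and the smallest are those without PET-1 and PET-4, at 0.32 and 0.05.

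Peptidases produce the peptides that PEPT1 carries. Of 24 peptide digestion genes looked for, 7 are in the table and all were tested. In ETEC vs CON 6 fell (ANPEP, ENPEP, CPO, XPNPEP2, ACE and CNDP1) and MEP1A did not pass (6 of 7, where 41.2% of all tested genes were called lower), with a median log2 fold change of -2.08 against -0.63 over all tested genes; with TMM or DESeq2 size factors 4 fell and with limma voom 3. Over the 14 libraries 0 passed in edgeR, with 3 at an unadjusted p under 0.05, and 3 fell in DESeq2. Called lower over all tested genes were 89 of 578 with TMM factors and 157 of 578 with DESeq2 size factors. With limma voom they were 163 of 577. Over the 14 libraries 0 of 578 were called in edgeR, and 39 of 578 were called lower in DESeq2. In PET vs ETEC all 7 rose, where 35.9% of all tested genes were called higher, with a median of 3.43 against 0.45 over all tested genes; 6 rose with TMM factors or DESeq2 size factors, 5 without PET-1 and PET-4 and 4 with limma voom. Over the 14 libraries 0 passed in edgeR, with 6 at an unadjusted p under 0.05, and 5 rose in DESeq2. Called higher over all tested genes were 76 of 578 with TMM factors and 117 of 578 with DESeq2 size factors. Without PET-1 and PET-4 they were 135 of 590, and with limma voom 90 of 577. Over the 14 libraries 0 of 578 were called in edgeR, and 77 of 578 were called higher in DESeq2. In PET vs CON 0 of the 7 passed in edgeR, where 41.4% of all tested genes were called. At an unadjusted p under 0.05 there were also 0, with 0 in DESeq2 and limma voom. ACE alone passed when PET-8 was left out (log2 fold change 1.46, adjusted p = 0.0499 in edgeR). The members were listed because the authors called them in these libraries, so these counts are not independent evidence of a direction.

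ANPEP, the aminopeptidase N that trims peptides at the brush border, ranged from 8.72 to 716 FPKM in CON with a median of 332, from 7.53 to 16.2 in ETEC with a median of 11.7, and from 7.41 to 1374 in PET with a median of 370. CON and PET each held libraries in the ETEC range and libraries far above it, namely CON-1, 2, 3, 5 and 6 and PET-1, 2, 4, 5 and 7. ANPEP fell in ETEC by 4.74 on the log2 scale in edgeR (adjusted p = 0.00127), where SLC15A1 did not pass; over the 14 libraries it fell by 4.36 and the call was lost (adjusted p = 0.161 in edgeR). ACE, a dipeptidyl carboxypeptidase of the same membrane, ranged from 13.7 to 97.2 FPKM in CON, from 10.0 to 17.3 in ETEC and from 7.46 to 400 in PET, where PET-4 and PET-1 were highest.

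MEP1A, the alpha subunit of the metalloprotease meprin A, ranged from 3.00 to 19.7 FPKM in CON with a median of 6.30, from 0.726 to 9.04 in ETEC with a median of 1.82, and from 0.637 to 122 in PET with a median of 7.34. Its order of PET libraries began as that of SLC15A1 did, with PET-4, PET-1, PET-7 and PET-2 at 122, 94.0, 24.4 and 13.0 FPKM.

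Of 27 genes of peptide and amino acid transport looked for, 7 are in the table, SLC15A1 included. In ETEC vs CON 5 fell (SLC6A19, SLC7A9, SLC7A7, SLC7A8 and SLC1A1) while SLC15A1 and the glutamine transporter SLC38A3 did not pass; the median log2 fold change was -1.61 against -0.63 over all tested genes, of which 41.2% were called lower, and with TMM factors 3 fell and with DESeq2 size factors 4. In PET vs ETEC 6 rose and SLC38A3 did not pass, with a median of 2.62 against 0.45 over all tested genes, of which 35.9% were called higher; 5 rose under either of these scalings and 5 without PET-1 and PET-4. In PET vs CON SLC15A1 was the only one of the 7 that passed, where 41.4% of all tested genes were called and 26.2% were called higher. Over the 14 libraries 0 of the 7 passed in any of the 3 comparisons in edgeR, with 2, 5 and 0 at an unadjusted p under 0.05, and in DESeq2 2 fell in ETEC vs CON, 5 rose in PET vs ETEC and 0 passed in PET vs CON. With limma voom 3 fell and SLC38A3 rose in ETEC vs CON, 3 rose in PET vs ETEC and 0 passed in PET vs CON, and leaving out either PET-1 or PET-4 left 0 that passed in PET vs CON in edgeR. For ETEC vs CON and PET vs ETEC, the counts over all tested genes under these settings are those given with the peptide digestion genes. In ETEC vs CON limma voom also called 159 of 577 tested genes higher.

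SLC6A19, the apical carrier of neutral amino acids, ranged from 0.884 to 83.2 FPKM in CON with a median of 32.9, from 0.495 to 1.87 in ETEC with a median of 0.892, and from 0.887 to 132 in PET with a median of 33.0. SLC7A7, the basolateral exporter of dibasic amino acids, ranged from 9.35 to 41.8 FPKM in CON, from 8.72 to 11.6 in ETEC and from 9.40 to 82.6 in PET. Both were highest in PET-5, where SLC15A1 was at 21.8 FPKM. SLC38A3 had its highest median in ETEC, with 5.09 FPKM in CON, 14.7 in ETEC and 3.32 in PET, and within PET it was lowest in PET-7 and PET-4, at 0.414 and 0.572. Its highest levels of all libraries were nonetheless in PET-8 and PET-3, at 35.7 and 22.5 FPKM, above the ETEC maximum of 21.3.

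Proton and bicarbonate handling sets the gradient that drives PEPT1. Of 15 such genes looked for 5 are in the table. In ETEC vs CON the chloride-bicarbonate exchanger SLC26A3, the carbonic anhydrases CA4 and CA12 and the sodium-bicarbonate cotransporter SLC4A4 fell, and the brush border scaffold PDZK1 did not pass (4 of 5, median log2 fold change -2.66, against 41.2% called lower and a median of -0.63 over all tested genes); 3 fell with TMM or DESeq2 size factors and 2 with limma voom. In PET vs ETEC all 5 rose, where 35.9% of all tested genes were called higher, with a median of 3.43; 3 rose with either of those scalings, 3 without PET-1 and PET-4 and 1 with limma voom. Without PET-5 the median was 1.29 and 4 rose, since the call of CA4 was lost (adjusted p = 0.156 in edgeR). Over the 14 libraries 0 of the 5 passed in edgeR in ETEC vs CON or PET vs ETEC, with 2 and 4 at an unadjusted p under 0.05, and 1 fell and 2 rose of the 4 to which DESeq2 gave an adjusted p. Without PET-5, 180 of 583 tested genes were called higher in PET vs ETEC. For the other settings the counts over all tested genes are those given with the peptide digestion genes. In PET vs CON 0 of the 5 passed in edgeR, where 41.4% of all tested genes were called. At an unadjusted p under 0.05 there were also 0, with 0 in DESeq2 and limma voom. Without PET-5, CA4 was lower in PET than in CON (log2 fold change -2.25, adjusted p = 0.0151 in edgeR). None of 15 transcription factors and other regulators looked for is in the table. In the authors' own pathway annotation, 9 listed genes are counted under protein digestion and absorption, SLC15A1 among them. Of these, 6 fell in ETEC vs CON (41.2% of all tested genes), 9 rose in PET vs ETEC (35.9%), and SLC15A1 alone rose in PET vs CON (26.2%), a call lost without PET-1 or PET-4. In ETEC vs CON 3 fell with TMM factors or limma voom, and in PET vs ETEC 7 rose without PET-1 and PET-4 and 4 with limma voom. The counts over all tested genes under these settings are again those given with the peptide digestion genes. When fitted over the 14 libraries, 0 of the 9 passed in edgeR, with 2, 8 and 0 at an unadjusted p under 0.05, and in DESeq2, which gave 8 of them an adjusted p, 2 fell in ETEC vs CON, 6 rose in PET vs ETEC and 0 passed in PET vs CON. The call of COL17A1 in PET vs ETEC was lost without PET-5 (log2 fold change 0.46, adjusted p = 0.517 in edgeR), and in PET-5 it stood at 17.6 FPKM against 0.193 to 2.25 in the rest of PET.

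Because most of the listed peptidases and amino acid transporters fell in ETEC while SLC15A1 did not pass, the ratio of SLC15A1 to each of the 13 other listed members of both lists was described after seeing the data. The other genes are in the table because the authors called them in these libraries, so the ratios restate those calls for each library, are given without a test and are no separate support. A plain ratio of 2 FPKM values within a library does not depend on library scaling. In ETEC, SLC15A1 was 1.61 to 2.51 times the level of ANPEP, against 0.0306 to 2.70 times in CON with a median of 0.0839, and 0.0158 to 2.27 times in PET with a median of 0.173. For ENPEP, glutamyl aminopeptidase, the ratio was 6.74 to 9.11 in ETEC, with medians of 1.08 in CON and 1.61 in PET. Every ETEC library thus had more SLC15A1 than ANPEP per unit of gene length, and 5 of 8 libraries in CON and 5 of 8 in PET had less.

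The mean log2 ratio was taken with 0.1 FPKM added to both genes. By it SLC15A1 stood higher in ETEC than in CON relative to 12 of the 13 genes and lower relative to SLC38A3, with a difference of -2.44. The differences were 4.06 for SLC7A9, the apical carrier of cystine and dibasic amino acids, 3.22 for SLC6A19, 2.98 for ANPEP, 2.52 for ENPEP and 1.43 for MEP1A on the log2 scale. From ETEC to PET the ratio was lower for 12 genes, with differences of -3.70 for SLC7A9, -2.73 for ANPEP and -2.32 for ENPEP, and higher for SLC38A3, by 2.90. Between PET and CON the differences were smaller, from -0.12 to 0.80. The sizes depended on the amount added. With 1 or 0.01 FPKM the highest difference of ETEC minus CON was 2.93 or 5.25, again with 12 genes above 0. The lowest of PET minus ETEC was then -2.68 or -5.72, with 2 or 1 genes above 0. In the 14 libraries that resembled no sum the ratio was again higher in ETEC than in CON for 12 of the 13 genes, while the differences between PET and CON ran from -1.22 to 0.75.

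**Figure D3:**
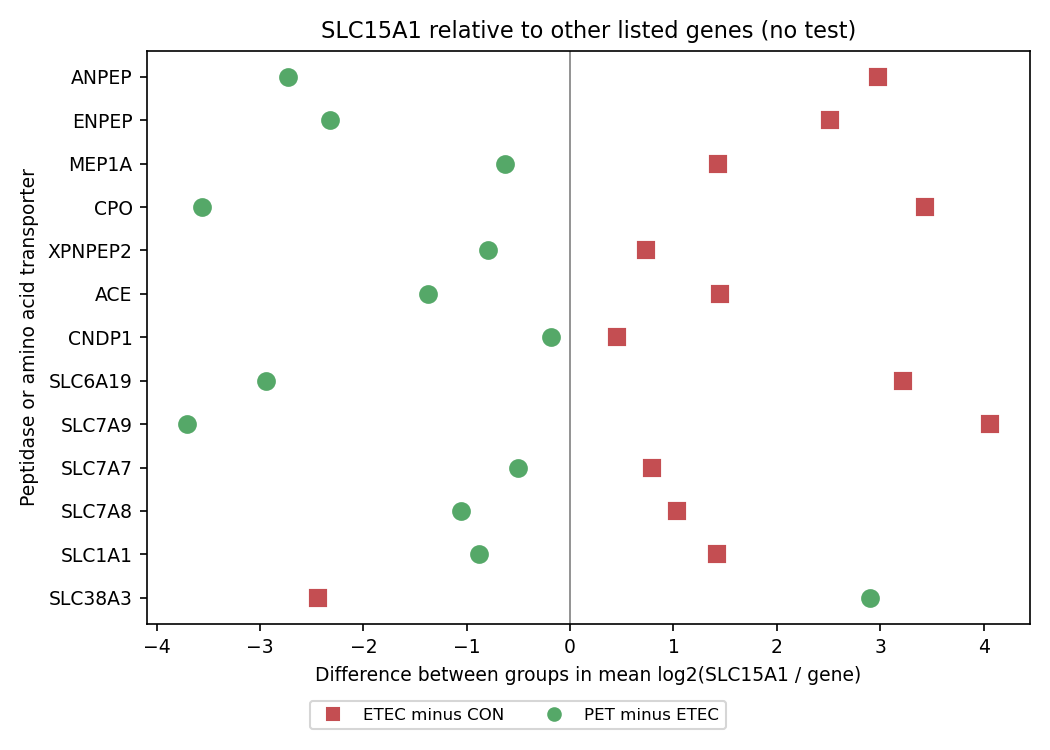
Difference between groups in the mean log2 ratio of SLC15A1 to each of 13 listed peptidases and amino acid transporters, for ETEC minus CON (squares) and PET minus ETEC (circles); no test is given. Squares lie above 0 for 12 genes and circles below 0 for 12, with SLC38A3 the exception in both.

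Which listed genes followed SLC15A1 most closely was described by Pearson's r of log2(FPKM + 0.1) after each group's mean was subtracted, over 24 libraries. It was taken for the 167 other genes that have a symbol and average 1 FPKM or more. These libraries share their depth, their tissue makeup and, for 10 of them, apparent overlap with other libraries, so r is given without a test. The 10 genes most like it were PAPSS2 (r = 0.93), MEP1A (0.91), ENPP7 (0.83), ACE (0.83), VNN1 (0.78), SLC7A8 (0.75), SLC4A4 (0.73), AHCYL2 (0.73), MAB21L3 (0.72) and STYK1 (0.72). The median over the 167 genes was 0.12, and 46 genes were above 0.5.

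PAPSS2, which makes the sulfate donor for sulfation reactions, was at 3.53 to 9.88 FPKM across CON, 4.76 to 8.82 across ETEC and 3.85 to 110 across PET, with 110 and 77.9 in PET-4 and PET-1 and at most 15.0 in the other PET libraries. ENPP7, the alkaline sphingomyelinase of the brush border, was at 0.556 to 2.19 FPKM across CON, 0.701 to 6.02 across ETEC and 0.0225 to 116 across PET, where PET-4 and PET-1 were at 116 and 91.9 and the other 6 at most at 1.97. VNN1, a membrane pantetheinase, was at 119 and 93.3 FPKM in PET-4 and PET-1 and at 64.9 or less in the rest of PET. SLC7A8, a basolateral exchanger of neutral amino acids, stood at 83.7 and 69.8 FPKM in PET-4 and PET-1 and at most at 32.7 in the others. These 4 genes thus shared the pair of high libraries with SLC15A1.

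The likeness of some of these genes rested on that pair. Without PET-1 and PET-4, ENPP7 and STYK1, a receptor-like tyrosine kinase, were both at r = 0.26 over 22 libraries, while MEP1A at 0.87, MAB21L3 at 0.83, SLC4A4 at 0.77, ACE at 0.74, PAPSS2 at 0.69 and AHCYL2, an S-adenosylhomocysteine hydrolase-like protein, at 0.68 remained among the 10 most like SLC15A1. MEP1A was then the most alike, and it was also first by Spearman's rho over the 24 libraries, at 0.81. Within the 8 ETEC libraries alone, where SLC15A1 varied little, r was 0.52 for MEP1A and -0.47 for PAPSS2, and 0 of the 10 genes were among the 10 most alike.

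The 5 genes least like SLC15A1 were EFHD1, a mitochondrial calcium-binding protein (r = -0.79), the homeobox factor PITX1 (-0.74), the lactosylceramide synthase B4GALT6 (-0.69), the lectin ITLN2 (-0.66) and SLC38A3 (-0.65). PITX1 ranged from 1.22 to 7.53 FPKM in CON, from 6.87 to 9.14 in ETEC and from 0.569 to 6.75 in PET, and was lowest of all libraries in PET-4 and PET-1.

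**Figure D4:**
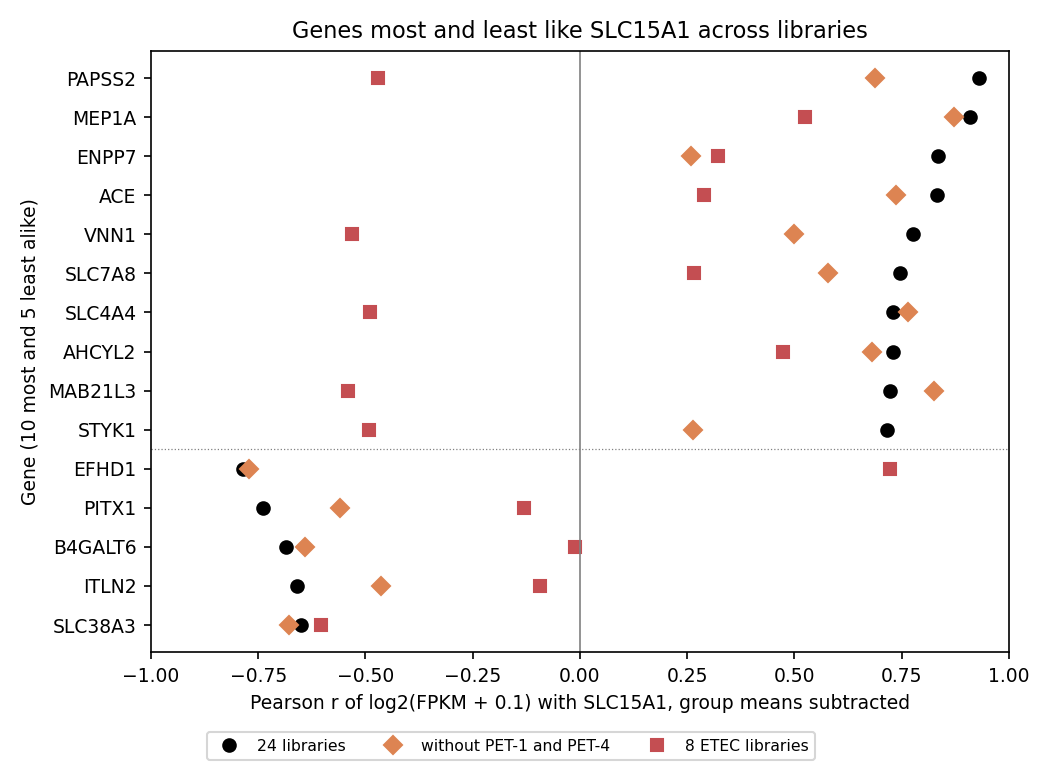
Pearson r with SLC15A1 of log2(FPKM + 0.1) for the 10 genes most and the 5 least like it, over 24 libraries, over 22 without PET-1 and PET-4, and over the 8 ETEC libraries, with group means subtracted. MEP1A is at 0.91, 0.87 and 0.52, while ENPP7 drops from 0.83 to 0.26 without PET-1 and PET-4.

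PET-1 and PET-4 were set apart by few genes as sharply as by SLC15A1. Of 446 listed genes that average 1 FPKM or more, 94 (21.1%) had these libraries as the 2 highest of PET, and in 12 (2.69%) the lower of the pair was at least 3 times the highest other PET library. The 12 include ENPP7, PAPSS2, MEP1A and SLC15A1, which were chosen by these values. SLC15A1 had the smallest ratio of the 12, at 3.17, just above the cut of 3, and ENPP7 the largest, at 46.5.

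PET-5 and CON-5 parted SLC15A1 from other brush border genes. PET-5 had the highest level of all 24 libraries for ANPEP (1374 FPKM), ENPEP (376), SLC6A19 (132) and SLC7A9 (134), yet SLC15A1 was at 21.8 FPKM, MEP1A at 0.946 and ENPP7 at 0.0225. CON-5 was the highest CON library for ANPEP, at 716 FPKM, with SLC15A1 at 21.9. SLC15A1 in both was thus at the ETEC median of 21.9 FPKM, while ANPEP was far above its ETEC maximum of 16.2. CON-2 was similar, with SLC15A1 at 21.5 FPKM and ANPEP at 311.

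**Figure D5:**
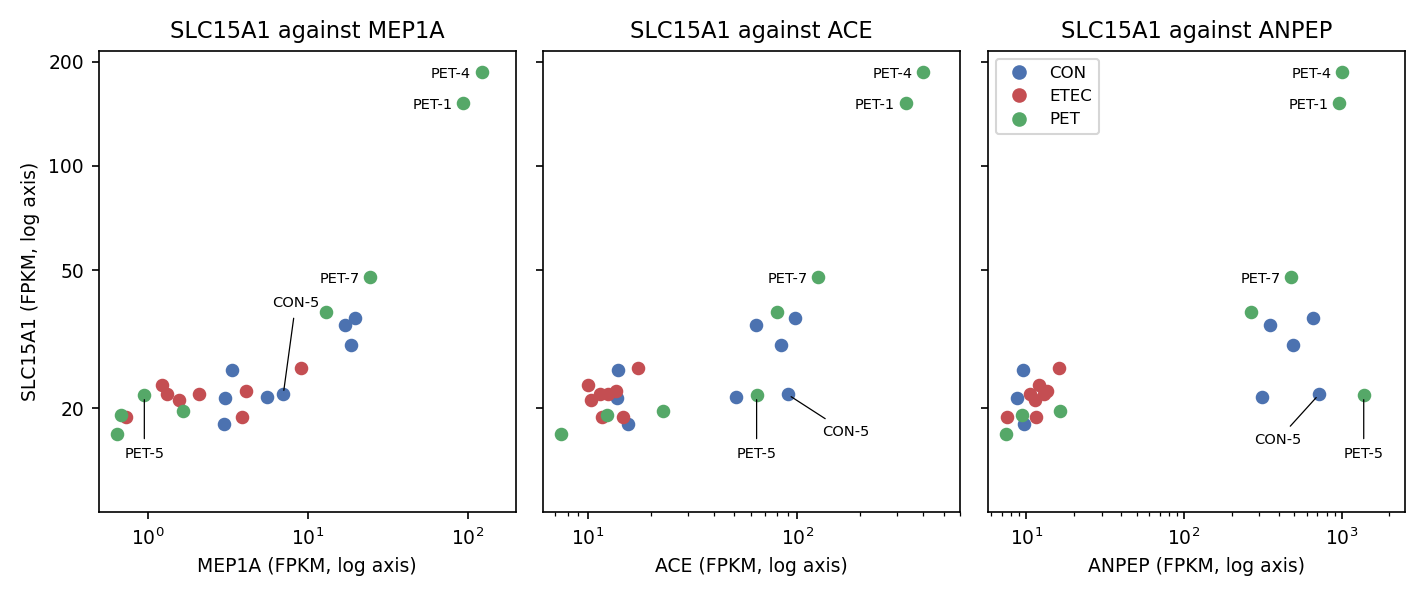
SLC15A1 against the peptidases MEP1A, ACE and ANPEP in each of the 24 libraries, in FPKM on log axes and coloured by group, with 5 libraries named. SLC15A1 is at 16.8 to 26.0 FPKM in every library with MEP1A at 9.04 FPKM or less, and higher in those with more MEP1A. PET-5 and CON-5 combine ANPEP levels of 1374 and 716 FPKM with SLC15A1 at 21.8 and 21.9.

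Markers of the gut's other regions and cells also differed among the libraries. Of 4 genes of the distal small intestine 3 are listed, FABP6, SLC10A2 and NTS, and their summed level ranged from 5.17 to 1017 FPKM in CON, from 5.60 to 11.3 in ETEC and from 7.19 to 199 in PET. CON-5 held the highest sum, with FABP6, the ileal bile acid binding protein, at 849 FPKM. PET-5 held the highest of PET, with SLC10A2, the ileal bile acid transporter, at 135 FPKM, while the sums in PET-1 and PET-4 were 35.0 and 31.0. FABP6 was at 51.3 FPKM in PET-5 against 3.39 and 1.43 in PET-1 and PET-4. NTS went the other way, at 12.8 FPKM in PET-5 against 17.3 and 24.2. The part of the position along the gut in the level of SLC15A1 was not tested. Without PET-5 and CON-5 the log2 fold changes of SLC15A1 were 1.65 for PET vs ETEC and 1.35 for PET vs CON. That fit cannot decide the question. It drops PET-5, which was below the PET median of SLC15A1, and keeps CON-1 and CON-2, with FABP6 at 480 and 378 FPKM.

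Of 14 enterocyte markers 5 are listed (ANPEP, MTTP, MEP1A, ENPEP and TMIGD1), with sums of 53.2 to 935 FPKM across CON, 77.8 to 95.6 across ETEC and 76.9 to 2071 across PET, where PET-5 was highest and PET-4 and PET-1 stood at 1433 and 1337. MTTP, which loads lipid onto lipoproteins, was highest of all libraries in PET-4 and PET-1, at 119 and 90.0 FPKM, and was at 15.0 in PET-5. OLFM4, the only listed one of 6 crypt and stem cell markers, was lowest of all libraries in PET-4 and PET-1, at 23.7 and 29.1 FPKM, against 78.7 to 396 in ETEC. Of 8 T and NK cell markers 3 are listed, with sums of 22.8 to 102 FPKM across CON, 17.1 to 25.7 across ETEC and 21.8 to 133 across PET, and they did not move together. The granzyme GZMA was highest in PET-4 and PET-1, at 128 and 103 FPKM, whereas the granzyme GZMM was at 4.63 and 5.71 there, within the CON range of 3.92 to 9.06. The receptor KLRF1 was at 0.624 and 0.460 there, but all of PET, at most at 1.18, was below every CON library, at least at 1.33. ITLN2, the only listed one of 4 Paneth cell markers, reached 63.9 FPKM in PET but only 0.0943 and 0.209 in PET-4 and PET-1. Of 8 enteroendocrine markers CCK and NTS are listed, and of 8 macrophage and neutrophil markers TREM2 and LTF. Their sums were 25.0 and 4.85 FPKM in PET-4, against 3.36 to 25.4 and 2.30 to 4.85 over PET. The members of each pair did not move together. In PET-4 NTS was at 24.2 FPKM and CCK at 0.757. In ETEC vs CON, CCK and TREM2 were called higher and NTS and LTF lower in edgeR. Markers of goblet cells, B and plasma cells, smooth muscle and fibroblasts are not in the table, and the part of cell makeup in the SLC15A1 values was not tested.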

How the data were processed

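RNA from jejunal tissue of 24 yak calf samples was sequenced, and groups and replicate numbers were taken from the sample titles. Per the file headers, the authors deposited whole-number counts for each gene and library, without normalization, and FPKM beside them. For 3 comparisons the authors' log2 fold changes are deposited with a p-value and an adjusted p-value each. Not given in the sources used here are the aligner, the counting tool, its strand setting, the genome build and the annotation. The labels' library protocol describes an enrichment for small RNAs, although the values are per gene; how this affects long transcripts such as SLC15A1 is not known. The table holds 639 genes, each called by the authors.

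Counts were fitted by the quasi-likelihood method of edgeR 4.0.16 under R 4.3.3 (filterByExpr, 1 fit over the 24 libraries with group as the only term), with Benjamini-Hochberg adjustment over 577 genes and a threshold of 0.05. Library sizes came from the ratio of count to FPKM in 233 genes that had 20 or more counts in every library, because TMM rests on a majority of unchanged genes and the table was selected for change; results under both scalings were known when this was chosen. TMM shifted the median log2 fold change by 0.61, -0.62 and -0.02 in ETEC vs CON, PET vs ETEC and PET vs CON, and DESeq2 size factors by 0.43, -0.43 and -0.01. The procedure was tested on simulated counts of independent libraries with the same spread for all genes, in ETEC vs CON only. That simulation does not cover the wide spread in PET or the libraries close to a sum. Exact permutation tests (scipy 1.17.1, two-sided) used log2(FPKM + 0.1). Alternatives were TMM and DESeq2 size factors, DESeq2 1.42.0, limma voom (3.58.1), no filter, other pseudocounts, a rank test, only the groups compared, the replicate number as a block, leaving out each library, and the 14 libraries not close to a sum. That set came from a non-negative least squares fit of each library on all possible pairs (253 per library; 509 genes averaging 20 counts or more) and a residual under 0.8 of that of the best single library. No pair of libraries within a group agreed within sampling noise (smallest chi-square 30.1 per gene over 84 pairs).

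Genes named are the 10 most and 5 least like SLC15A1 by within-group r, among those that have a symbol and average 1 FPKM or more, all listed members of 4 lists (peptide digestion, peptide and amino acid transport, proton and sodium exchange, regulators) and of the pathway annotation, and cell type markers. One gene of the peptide digestion list and pathway annotation is not reported here, and the counts of lists and ratios leave it out. The gene, the lists and the tests were chosen with earlier results of these data known. The ratios, the fits without PET-1 and PET-4 and without PET-5 and CON-5, DESeq2 over the 14 libraries and the set with Y-linked counts were added after seeing the data. None of 364 Ensembl identifiers matched the RefSeq table (0 matches), which was used for neighbouring genes by symbol only.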

Additional observations from a re-analysis of the deposited data

Results flagged for a closer look

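In 30 named genes and 3 groups, 90 sets of 8 libraries were examined for a library whose gap to the nearest other exceeded Dixon's critical value of 0.526 of the group's range; chance flags about 1 in 20 such sets, and 7 were found. None was in SLC15A1 itself, where PET-1 and PET-4 are both high. MEP1A, the peptidase most like SLC15A1, was at 9.04 FPKM in ETEC-7, with 0.726 to 4.08 in the other ETEC libraries, and SLC15A1 was also highest of ETEC there, at 26.0. Of the 7, 4 were in PET-5, where SLC15A1 was at 21.8 FPKM. These were SLC7A9 at 134 FPKM (others 0.0902 to 32.0), CA4 at 11.0 (others 0.184 to 1.20), CA12 at 19.8 (others 0.101 to 5.44) and the collagen gene COL17A1 at 17.6 (others 0.193 to 2.25). COL17A1 also stood apart in CON-5, at 3.58 FPKM against 0.366 to 1.60. CPO, a brush border carboxypeptidase, was at 0.0699 FPKM in ETEC-8 against 0 to 0.0246, which are very few counts and near the limit of detection.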

How the results depend on the processing

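SLC15A1 kept a positive log2 fold change under all 36 alternatives for PET vs ETEC and all 36 for PET vs CON, and its call under 28 and 27 of them. In edgeR the PET vs ETEC value of 1.52 lost its call with TMM factors (0.63), DESeq2 size factors (0.94) and the 14 libraries (1.41, with TMM factors 0.93), without PET-1 and PET-4 (0.32), in limma voom (0.90) and in DESeq2 over the 14 libraries (1.41). The PET vs CON value of 1.26 lost it in limma voom (0.67), with only the groups compared (1.26), over the 14 libraries (1.32, with TMM factors 1.08, in DESeq2 1.32) and without PET-1 and PET-4 (0.048). Leaving out each library gave -0.33 to -0.19 in ETEC vs CON, 1.04 to 1.67 for PET vs ETEC with no call lost, and 0.78 to 1.40 for PET vs CON, lost without PET-1 (0.93) or PET-4 (0.78). In ETEC vs CON the sign was positive with TMM factors (0.34), DESeq2 size factors (0.15) and TMM over the 14 libraries (0.15), never with a call. The exact tests of mean log2 FPKM passed under none of their 31 or 32 alternatives.

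Called genes in ETEC vs CON (409) numbered 0 over the 14 libraries, 11 with TMM there and 79 with DESeq2 there. In PET vs ETEC (271) they numbered 162 with TMM, 158 with limma voom, 0 over the 14 libraries, 0 with TMM there and 88 with DESeq2 there, and 172 without PET-1 and PET-4. In PET vs CON (239) they numbered 146 with limma voom, 130 with only the groups compared, 10 over the 14 libraries, 13 with TMM there and 81 with DESeq2 there. Over the 14 libraries 153, 163 and 156 genes had an unadjusted p under 0.05. Of the 10 genes most like SLC15A1, 4 were shared by Spearman's rho, 0 in ETEC alone and 6 without PET-1 and PET-4.

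Replicate numbers were not taken as pairs, since not every same-numbered pair correlated above 0.1 (0, 6 and 3 of 8 pairs did in ETEC vs CON, PET vs ETEC and PET vs CON): same-numbered libraries had a median correlation of -0.08, 0.22 and -0.17, and 0, 4 and 2 libraries fitted best with their own number. With the number as a block, SLC15A1 was at 1.05 (adjusted p = 0.0744 in edgeR) for PET vs ETEC and at 0.79 (adjusted p = 0.183) for PET vs CON, and 380, 185 and 179 genes were called. ENPP7, whose values were 3.18 for PET vs ETEC and 4.46 for PET vs CON, was the only named gene with a called value that changed sign: -1.37 in DESeq2, -0.21 in limma voom and -1.61 without PET-1 and PET-4 in PET vs ETEC, and -0.087 in DESeq2 and -0.33 without PET-1 and PET-4 in PET vs CON. Of 3121 alternatives for the values of 29 other named genes, 258 lost a call and 26 gained one. The cause of these losses was not tested, beyond the smaller number of libraries where some are left out.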
